A study of Mus musculus with 35 samples.

Results

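Memory and naive CD8 T cells of mice heterozygous for a floxed Dot1l gene were compared by RNA sequencing, gene by gene, across every gene with enough counts. The members are the 8 libraries labelled Het from spleen, 4 of memory and 4 of naive cells, out of 35 libraries in all, chosen by their labels and not by any measured value. Mice labelled Het carried the genotype Lcre+/-;Dot1Lfl/wt, that is, 1 floxed and 1 wild-type copy of Dot1l with a Cre transgene that the labels write as Lcre. The strain was C57BL/6 in all groups, and the Cre transgene was present in all groups, the controls included. Memory cells were sorted from spleen as CD44+ CD62L+ cells and naive cells as CD44- CD62L+ cells. The same 2 subsets of mice labelled WT (Lcre+/-;Dot1Lwt/wt) and KO (Lcre+/-;Dot1Lfl/fl), 4 libraries per subset, serve below for comparison. No label names the promoter that drives the Cre transgene or gives the age of the mice. Whether libraries came from separate or pooled animals is not stated either. The spread between libraries may therefore be in part technical, and the p-values measure that spread only. Replicate 3 of both Het subsets differed from the other replicates in sex-linked RNA (below) and so came from other animals.

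Naive CD8 T cells have not yet met their antigen and circulate through lymphoid organs in a resting state, held there by transcription factors such as LEF1, TCF1 and FOXO1 and by homing receptors such as CCR7. Memory CD8 T cells respond faster, divide in response to interleukin-15 through CD122 (encoded by Il2rb), and carry T-bet (Tbx21) and Eomesodermin (Eomes), T-box transcription factors that switch on genes for inflammatory homing and killing. CD44 marks cells that have left the naive state, and CD62L is the lymph node homing receptor that naive and central memory cells share. DOT1L is the methyltransferase that places methyl groups on a lysine in the core of histone H3 along transcribed genes.

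Dot1l itself, the floxed gene (chromosome 10, 80755206 to 80795461, GRCm38), had 49.5, 51.9, 40.9 and 47.9 CPM in memory replicates 1 to 4 and 50.5, 49.8, 52.2 and 56.1 CPM in naive replicates 1 to 4. CPM stands for counts scaled to library size. Both groups overlapped, with means of 47.6 ± 4.72 and 52.2 ± 2.79 CPM (SD, n = 4, as in all CPM means below). The log2 fold change of memory against naive was -0.13 ± 0.08 (SE; all fold changes below, in brackets or after "rose by", are on this log2 scale with their SE), and it was not called (edgeR, adjusted p = 0.294). The floxed stretch is not named in the labels, and a gene-wide count therefore checks neither the deletion nor the genotype.

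The 8 libraries held 6456236 to 11714536 counts each, and 10296 of 52636 genes had enough counts in the series to be tested. The first principal component of the 8 libraries, 41.9% of the variance, placed all memory libraries (-33.18 to -21.72) apart from all naive ones (26.23 to 31.8). Correlations of log2 CPM were 0.9788 to 0.9831 among memory and 0.9849 to 0.9886 among naive libraries. Replicate 3 of each group had more Xist than Y-linked RNA and the other replicates the reverse. Counts of several abundant T cell transcripts were low, with means of 8.82 CPM for Cd8a, 2.03 for Cd3d, 5.41 for B2m and 1.73 for Gapdh in memory libraries, so a CPM value is read here only between libraries of the same gene. In bulk RNA, fewer cells that express a gene and less of its RNA per cell cannot be told apart.

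Between memory and naive libraries 1738 genes were called at an adjusted p under 0.05, 16.9% of those tested. Of these, 856 (8.31%) were higher and 882 (8.57%) lower in memory, and the median log2 fold change over all tested genes was 0.0018. The genes that rose moved further than those that fell. A log2 fold change over 1 was seen in 310 of the genes called higher, over 2 in 127 and over 3 in 66, against 230, 97 and 39 of the genes called lower. Their median sizes were 0.70 and 0.52. In 693 of the genes called higher (81.0%) every memory library lay above every naive one, and in 697 of those called lower (79.0%) every memory library lay below. Over all tested genes 8.93% had memory libraries wholly above and 8.6% wholly below.

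**Figure D1:**
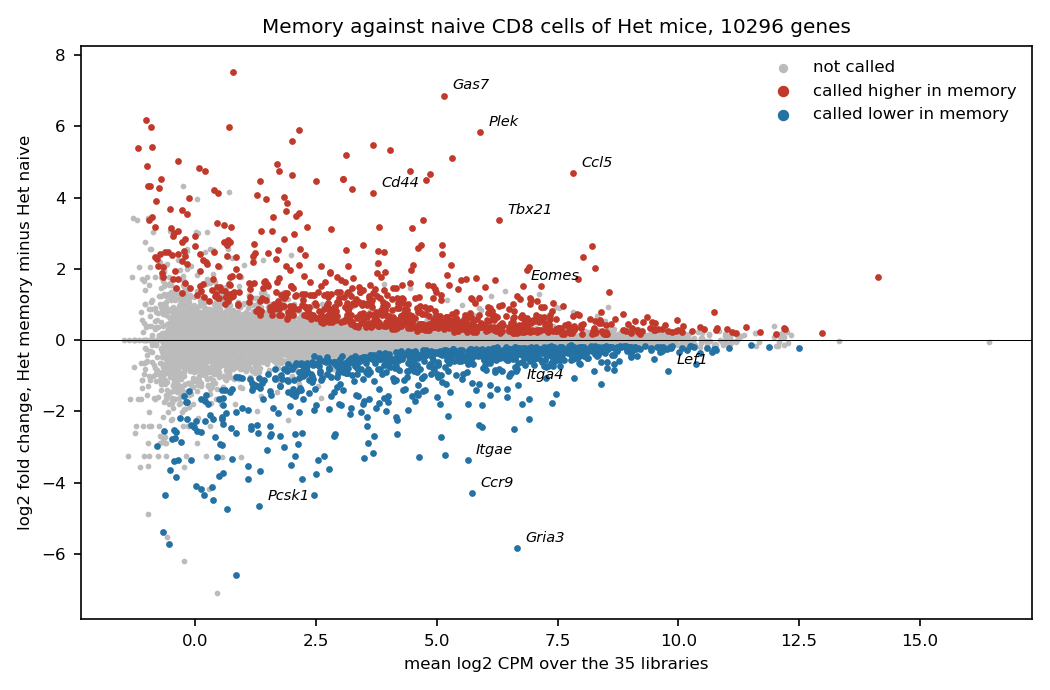
Log2 fold change of memory against naive Het libraries (vertical axis) against mean log2 CPM (horizontal axis) for the 10296 tested genes, with called genes coloured by direction. The 856 genes called higher reach further from 0 than the 882 called lower.

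The sort was checked on its CD44 gate. Cd44 (chromosome 2, 102811141 to 102901665) was at 26.3, 28.2, 29.6 and 33.2 CPM in the memory and 1.18, 1.68, 2.36 and 1.56 CPM in the naive libraries, a log2 fold change of 4.12 ± 0.29. Since cells were sorted on CD44 protein, this checks the sort and is no finding.

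Transcription factors of memory and effector cells were mostly higher or not called. Of 22 listed, 21 were tested, 9 rose and 3 fell, and their median log2 fold change was 0.32 against 0.0018 over all genes. Counts of called list members, here and below, stand against 8.31% called higher and 8.57% lower over all tested genes. Tbx21 (chromosome 11, 97098071 to 97115331), the gene of T-bet, had 157, 201, 189 and 172 CPM in memory and 16.3, 14.6, 20.9 and 18.4 CPM in naive libraries. The lowest memory library was several times above the highest naive one. The means of 179.8 ± 19.2 and 17.5 ± 2.74 CPM gave a log2 fold change of 3.36 ± 0.26 (edgeR, adjusted p = 1.05e-10). Its relative Eomes (chromosome 9, 118478212 to 118486132) was at 133, 169.7, 162 and 133 CPM in memory and 49.6, 64.9, 47.3 and 45.2 CPM in naive libraries, without overlap, and rose by less (1.53 ± 0.17, adjusted p = 3.7e-08).

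Runx2 (chromosome 17, 44495987 to 44814797), a Runt family factor, had 435, 626, 560.4 and 673 CPM in memory and 69.2, 77, 127 and 95.4 CPM in naive libraries. All memory libraries were higher, at a log2 fold change of 2.64 ± 0.20. Bhlhe40, a basic helix-loop-helix repressor induced by activation, rose from 0.949 ± 0.327 to 8.72 ± 0.96 CPM (3.18 ± 0.29). Hopx, a homeodomain cofactor, rose by 1.92 ± 0.22, Prdm1, which encodes Blimp-1, by 1.88 ± 0.30, and the zinc finger factor gene Zeb2 by 1.55 ± 0.46. Stat4, which transmits interleukin-12 signals, rose by 0.93 ± 0.10 and Irf8, an interferon regulatory factor, by 1.19 ± 0.27. The 3 that fell were Bcl6 (-0.81 ± 0.14), a repressor of Prdm1, Ikzf2 (-0.87 ± 0.23), which encodes Helios, and Id2 (-0.54 ± 0.17), an inhibitor of E proteins. Ikzf2 lost its call with a term for the replicate number (edgeR, adjusted p = 0.202). Id2 stood at 104, 105, 96.1 and 104 CPM in memory and 178, 134, 121 and 159 CPM in naive libraries. These did not overlap, but 5 of the 8 fits that left out 1 library lost the call (adjusted p up to 0.111, without naive replicate 1). Its partner Id3 was not called (32.4 ± 6.03 against 29.5 ± 5.7 CPM), and neither was Runx3 (36.1 ± 7.92 against 32.4 ± 5.49 CPM), a factor of CD8 lineage identity.

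Surface receptors of memory cells were higher where called, with 1 exception. Of 24 surface receptors listed for memory cells 14 were tested, 7 rose and 1 fell, with a median of 0.97. Il2rb (chromosome 15, 78479256 to 78495271), the shared chain of the interleukin-2 and interleukin-15 receptors, had 22.7, 24.2, 29.7 and 28.7 CPM in memory and 3.73, 4.85, 5.67 and 4.79 CPM in naive libraries. The groups were far apart, with a log2 fold change of 2.47 ± 0.19 (edgeR, adjusted p = 7.6e-13). Both chains of the interleukin-18 receptor rose, Il18rap by 3.61 ± 0.35 (from 0.725 ± 0.321 to 9.05 ± 1.53 CPM) and Il18r1 by 1.45 ± 0.29 (from 1.48 ± 0.175 to 4.05 ± 1.21 CPM). The interleukin-7 receptor gene Il7r rose by 0.92 ± 0.28, with overlapping libraries. Ifngr1, an interferon-gamma receptor chain, rose by 1.01 ± 0.36 and Cd5, which dampens antigen receptor signals, by 0.40 ± 0.14. Ly6c2, which has the close copy Ly6c1 and may share reads with it, was at 2.31, 2.08, 3.82 and 1.15 CPM in memory and 0.393, 1.49, 0.473 and 0.736 CPM in naive libraries (1.56 ± 0.42), and lost its call without memory replicate 3 (adjusted p = 0.0596). The tetraspanin gene Cd81 fell from 5.31 ± 1.69 to 1.59 ± 0.337 CPM (-1.72 ± 0.47). Without naive replicate 1, memory replicate 3 or memory replicate 4 the number of receptors called higher dropped to 4 each.

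Homing genes changed in both directions. Of 20 chemokine and trafficking receptors 14 were tested, of which 6 rose and 3 fell, with a median of 0.33. Cxcr3, a receptor for interferon-induced chemokines, had 8.98, 7.68, 7.64 and 6.79 CPM in memory and 0.884, 1.29, 0.945 and 1.2 CPM in naive libraries. Every memory library exceeded every naive one (2.83 ± 0.29). Ccr2, a receptor that draws cells to inflamed tissue, had 148 counts over the memory and 3 over the naive libraries, a ratio of 55.5 (95% interval 18.6 to 272, counting error only). Naive replicate 4 held its highest naive value, and without it the log2 fold change was 6.50. Cxcr5, the follicle homing receptor, rose by 2.68 ± 0.32, Gpr183, an oxysterol receptor of the same route, by 1.17 ± 0.14, and the lysophosphatidylserine receptor gene Gpr174 by 0.84 ± 0.14.

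The 3 receptors that fell were Ccr9, Ccr7 and S1pr1. Ccr9 (chromosome 9, 123678439 to 123784330), the gut homing receptor, had 3.29, 2.88, 3.33 and 3.34 CPM in memory and 71.1, 58.6, 63.1 and 63 CPM in naive libraries. Its log2 fold change of -4.30 ± 0.25 (edgeR, adjusted p = 9.81e-14) came with narrow spreads in both groups. Ccr7, the receptor for lymph node chemokines, had 77.4, 72.8, 78.2 and 92 CPM in memory and 134, 140.2, 126 and 140.4 CPM in naive libraries (-0.75 ± 0.09). The groups did not overlap. S1pr1, which lets T cells leave lymphoid organs, fell by less, from 743 ± 68.6 to 547 ± 63.7 CPM (-0.44 ± 0.08).

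Killing and effector genes were represented by few members. Of 22 listed, 8 were tested, 5 rose and none fell, with a median of 1.23, which stays at 1.23 with Fasl at the lower bound given here. Ccl5 (chromosome 11, 83525778 to 83530518), a chemokine stored by memory cells, had 390.3, 359, 505 and 421 CPM in memory and 11.6, 14.2, 24.5 and 15.6 CPM in naive libraries. The gap was wide, at a log2 fold change of 4.68 ± 0.49 (edgeR, adjusted p = 3.12e-08). Fasl, the death receptor ligand, had 76 counts over the memory and 0 over the naive libraries, at least 28.5-fold higher against a floor of 3 counts over the naive group, while the 95% lower limit of the ratio from counting error was 22.6. Nkg7, a granule membrane protein gene, rose by 1.14 ± 0.22, the cathepsin gene Ctsw by 1.33 ± 0.29 and the cystatin gene Cst7 by 1.32 ± 0.35. Prf1, the gene of perforin, was not called (1.09 ± 0.462 against 0.488 ± 0.254 CPM, adjusted p = 0.133). Granzyme and interferon-gamma genes had too few counts to test. Gzma, Gzmb, Gzmk, Ifng and Klrg1 had at most 2 counts in any library of the series. Gzmm had 20 counts over the memory and 0 over the naive libraries, with at most 7 in any of them.

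Natural killer receptors that memory CD8 cells can carry were mostly too low to test. Of 21 listed, 4 were tested and 3 rose, namely Cd160 (1.26 ± 0.23), Crtam (0.86 ± 0.18) and Klrk1 (1.20 ± 0.43), which encodes NKG2D. Klrk1 had 2.22, 3.2, 2.09 and 1.98 CPM in memory and 0.982, 1.68, 0.827 and 0.552 CPM in naive libraries. It lost its call in 7 of the 8 fits that left out 1 library (adjusted p up to 0.152, without naive replicate 4). Klrd1 had at most 7 counts in these libraries and was not tested.

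**Figure D2:**
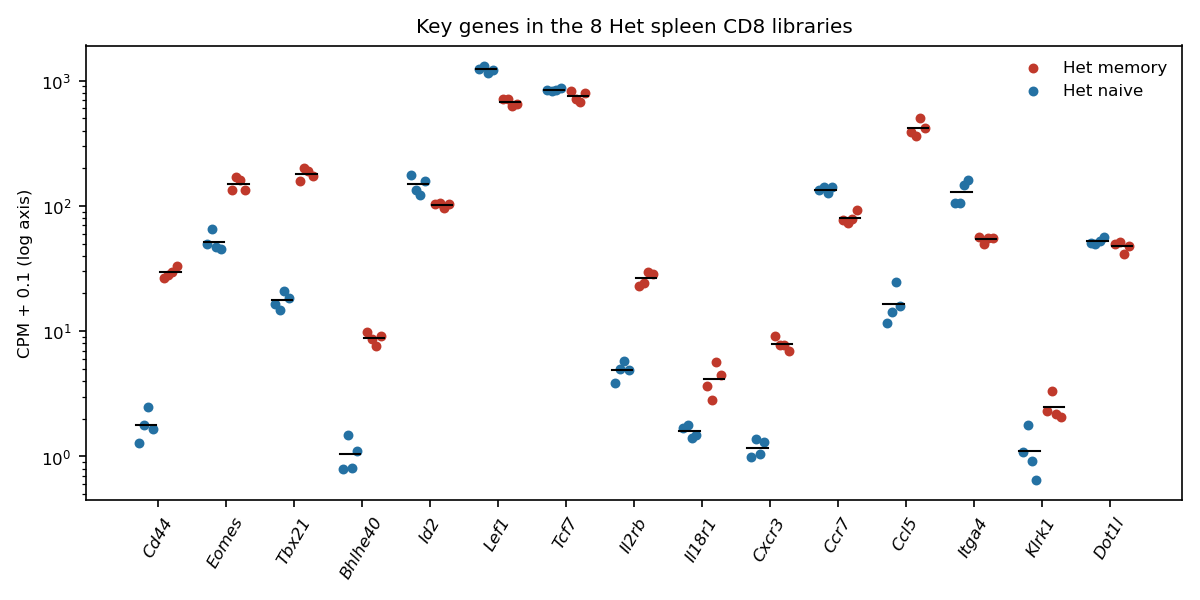
CPM plus 0.1 on a log axis for 15 genes in the 4 memory and 4 naive Het libraries (points, one per library), with black bars at group means. Tbx21, Il2rb, Cxcr3 and Ccl5 show memory libraries wholly above naive ones, Lef1, Ccr7 and Itga4 wholly below, and Dot1l libraries overlap.

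Genes of calcium-binding proteins and the cytoskeleton were higher where called. Of 17 S100, annexin, galectin and related genes 16 were tested, 8 rose and none fell, with a median of 0.66. S100a6 (chromosome 3, 90612882 to 90624181), a calcium-binding protein gene, had 31.8, 33.9, 47.6 and 49.1 CPM in memory and 0.688, 0.792, 2.72 and 2.3 CPM in naive libraries. All memory libraries were above the naive ones (4.66 ± 0.42). Ahnak, which encodes a giant scaffold protein, rose from 9951 ± 888 to 34126 ± 4953 CPM (1.78 ± 0.15). Anxa2, a membrane-binding annexin, rose by 1.98 ± 0.20, Lgals1, which encodes galectin-1, by 1.17 ± 0.17, and Vim, the intermediate filament gene, by 0.79 ± 0.08. S100a4 had 21 counts over the memory and 3 over the naive libraries, a ratio of 7.88 (95% interval 2.35 to 41.3).

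Called genes were ranked by log2 fold change. Only those with a mean log2 CPM from 1 upward over all 35 libraries and no overlap of the Het libraries entered. That mean covers every group of the series, so genes rare in the Het memory and naive libraries could pass through other groups. The highest fold changes belonged to genes of signalling and membrane traffic. Gas7 (chromosome 11, 67455437 to 67688990), a gene of an actin-binding protein first described in growth-arrested cells, had 68.1, 83.6, 91.1 and 104 CPM in memory and 0.196, 0.891, 1.18 and 0.736 CPM in naive libraries. It was nearly silent in the naive group, and its log2 fold change was 6.86 ± 0.67 (edgeR, adjusted p = 8.24e-09). Plek (chromosome 11, 16971206 to 17052381), which encodes pleckstrin, a protein kinase C substrate, had 138, 124, 155 and 154 CPM in memory and 0.786, 2.18, 4.02 and 3.22 CPM in naive libraries (5.83 ± 0.59). Ttc39c had 77 counts over the memory and 1 over the naive libraries, a ratio of 86.7 (95% interval 15.1 to 3470), and without naive replicate 3 the naive group was at 0. The kinase genes Dapk2 (5.48 ± 0.52) and Lrrk1 (5.10 ± 0.47), the oxysterol-binding protein gene Osbpl3 (5.33 ± 0.49) and the scaffold gene Dlg5 (5.19 ± 0.48) followed. Kcnj8, a potassium channel gene, rose by 4.75 ± 0.47. The small GTPase genes Gem and Arl4d rose by 4.64 ± 0.56 and 4.52 ± 0.51, and Gem stood at 6.14 without naive replicate 3. Itga2, an integrin gene, rose by 4.94 ± 0.68 and stood at 6.50 without naive replicate 4.

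Genes of the naive state fell. Of 34 listed genes of naive and resting T cells, all tested, 15 fell and 3 rose, with a median of -0.23 against 0.0018 over all genes. Lef1 (chromosome 3, 131110471 to 131224356), a partner of TCF1 in keeping T cells naive, had 715, 719, 631 and 654 CPM in memory and 1247, 1305, 1159.98 and 1206 CPM in naive libraries. The groups were well apart (-0.85 ± 0.07, edgeR, adjusted p = 1.32e-12). Foxo1, which drives homing and survival genes of resting cells, fell from 156 ± 10.2 to 110.3 ± 5.19 CPM (-0.50 ± 0.08). Foxp1, a quiescence factor, fell by a small amount (-0.20 ± 0.06) and Bach2, a repressor of effector genes, by -0.50 ± 0.14. Foxp1 lost its call with a term for the replicate number (edgeR, adjusted p = 0.0601). The size of the fall ranged widely. Igfbp4, an insulin-like growth factor binding protein gene, had 12.6, 5.92, 3.94 and 8.67 CPM in memory and 87.1, 80.4, 62.5 and 73.7 CPM in naive libraries (-3.23 ± 0.24). Cnn3, an actin-binding calponin gene, fell by 2.25 on the log2 scale, the Sox family factor gene Sox4 by 1.97, the interleukin-6 receptor chain gene Il6st by 0.87, Actn1, which encodes an actinin, by 0.68 and the antiproliferative gene Btg1 by 0.66. Tgfbr2 (-0.36 ± 0.07) and Klf7 (-0.32 ± 0.07) fell too.

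Several genes used to define the naive state did not pass. Tcf7, the gene of TCF1, had 822, 708, 679 and 797 CPM in memory and 845, 820.1, 836 and 878 CPM in naive libraries, which overlapped (-0.17 ± 0.06, edgeR, adjusted p = 0.0669). It was called lower with a sex term (edgeR, adjusted p = 0.0219) and without memory replicate 1 (0.0242) or memory replicate 4 (0.0455). Satb1, a genome organiser (-0.12 ± 0.05, adjusted p = 0.143), and Klf2, which controls S1pr1 (-0.19 ± 0.12, adjusted p = 0.335), were not called. The 3 list members that rose were Il7r, described above, Nsg2 (0.39 ± 0.07) and the kinase gene Txk (0.47 ± 0.12).

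The lowest log2 fold changes were led by Gria3 (chromosome X, 41400854 to 41678601), a glutamate receptor subunit gene, with 1.6, 1.6, 1.23 and 1.15 CPM in memory and 74.5, 49.7, 97.4 and 97.5 CPM in naive libraries. Memory libraries held little of it (-5.83 ± 0.36, edgeR, adjusted p = 1.13e-12). Itgae (chromosome 11, 73090583 to 73147446), the gene of CD103, which binds epithelial cadherin, had 5.69, 3.84, 3.45 and 4.28 CPM in memory and 41.9, 52, 41.5 and 46.5 CPM in naive libraries. It had the lowest adjusted p of the genes named here (-3.36 ± 0.17, adjusted p = 1.47e-17). The prohormone convertase gene Pcsk1 (-4.66 ± 0.45), Ankrd55 (-3.77 ± 0.50), the LIM domain gene Pdlim4 (-3.52 ± 0.55) and Mmp15, a membrane-type matrix metalloproteinase gene (-3.25 ± 0.28), fell likewise. Gpr83, a receptor gene known from regulatory T cells (-3.91 ± 0.41), Tcf7l2, a relative of Lef1 (-3.61 ± 0.37), the auxilin gene Dnajc6 (-3.52 ± 0.46), the planar polarity gene Vangl2 (-3.30 ± 0.44), Tmie (-3.29 ± 0.26) and the fibulin gene Fbln1 (-3.26 ± 0.66) depended in size on memory replicate 1. Without it they stood at -5.08, -4.45, -4.48, -4.06, -3.91 and -4.05. Arpp21 had 1 count over the memory and 23 over the naive libraries, naive 20.4 times memory (95% interval 3.32 to 842), and Dgkg, a diacylglycerol kinase gene, 2 and 34 counts, naive 15.1 times memory (3.87 to 130). All memory counts of Arpp21 came from replicate 3 and all of Dgkg from replicate 4, so that without these libraries the memory group was at 0.

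Promoter sequence of these genes was read from the RefSeq table of GRCm38.p6, over the 250 bases before each start. T-box factors bind letters such as GGTGTGA and TCF/LEF factors letters such as CTTTGAA or CTTTGAT, and both were searched on either strand, since Tbx21, Eomes and Lef1 are among the genes that changed. Of all 32851 promoter windows 3.33% held the T-box letters and 7.48% the TCF/LEF letters. Of the 49 key, highest and lowest genes 37 had a window, of which 2 held the T-box letters (Itga4 and Gpr83) and 3 the TCF/LEF letters (Arpp21, Foxp1 and Pcsk1). A comparison of called with other genes was void, because only 75.8% of the tested genes had a window. Stretches of 3 of these promoters, from genes that fell in memory, follow 5′ to 3′ on the gene's strand with the matched letters in capitals. A match describes the letters only and shows no binding.
Itga4, chr2:79255236-79255292, plus strand, match 165 bases before the start: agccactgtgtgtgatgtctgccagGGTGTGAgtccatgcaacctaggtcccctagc
Gpr83, chr9:14860051-14860107, plus strand, match 134 bases before the start: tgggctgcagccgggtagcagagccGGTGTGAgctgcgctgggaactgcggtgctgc
Foxp1, chr6:99266689-99266745, minus strand, match on the opposite strand 205 bases before the start: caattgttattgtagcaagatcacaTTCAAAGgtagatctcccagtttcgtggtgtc

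Integrins, the adhesion receptors that pair an alpha with a beta chain, changed in both directions, with 7 of 18 tested genes higher, 4 lower and a median of 0.06. Itgb1 (chromosome 8, 128685654 to 128733200), the beta chain shared by many integrins, had 387, 348, 379 and 388 CPM in memory and 72, 75.1, 74.2 and 79.1 CPM in naive libraries. The spread was small in both groups (2.32 ± 0.22). Both chains of LFA-1 rose, Itgal by 0.64 ± 0.10 and Itgb2 by 0.62 ± 0.09. Itgax, the gene of CD11c, had 11.2, 18.3, 20.2 and 13.4 CPM in memory and 0.491, 0.495, 0.236 and 1.47 CPM in naive libraries (4.45 ± 0.49), and stood at 5.19 without naive replicate 4. Itga1, a collagen receptor chain, had 37 counts over the memory and 1 over the naive libraries, a ratio of 41.6 (95% interval 7.03 to 1690).

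The 4 integrin genes that fell were Itgae, described above, Itga4, Itgb7 and Itga5. Itga4 (chromosome 2, 79255426 to 79333123), the gene of CD49d, had 56.6, 49.1, 55.5 and 54.9 CPM in memory and 106, 106, 146 and 160.2 CPM in naive libraries, all memory values being lower (-1.26 ± 0.16, edgeR, adjusted p = 6.11e-07). Its partner Itgb7, which also pairs with the product of Itgae, fell from 496 ± 38.6 to 331 ± 29.6 CPM (-0.58 ± 0.07). Itga5, a fibronectin receptor chain, fell by 0.94 ± 0.13 on the log2 scale.

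Antigen receptor signalling genes moved by small amounts. Of 38 tested, 13 rose and 5 fell, with a median of 0.08. The kinase gene Fyn rose from 611 ± 47.2 to 859 ± 42.7 CPM (0.49 ± 0.07), Malt1, a protease of the NF-kappaB route, rose by 0.55 ± 0.08, the calcium-responsive factor gene Nfatc2 by 0.64 ± 0.09 and the phosphatase gene Ptpn22 by 0.56 ± 0.08. Zap70 rose by 0.30 ± 0.07. Sos1, a RAS exchange factor, fell by 0.46 on the log2 scale, Rasgrp1, another one, by 0.43, and Cd247, the zeta chain of the receptor, by 0.38. Lck was not called (0.19 ± 0.08, edgeR, adjusted p = 0.119).

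Immediate early genes, which are switched on within minutes of receptor signals, were lower where called, apart from Dusp5. Of 21 tested, 6 fell and 1 rose, with a median of -0.32. Egr3 had 18.1, 16.2, 16.1 and 13.5 CPM in memory and 53.7, 61.7, 55.7 and 49.1 CPM in naive libraries, without overlap (-1.78 ± 0.23, edgeR, adjusted p = 6.93e-07). Egr1 (-1.36 ± 0.22) and Egr2 (-1.22 ± 0.24), zinc finger factors of the same family, fell too. Nfkbia, the inhibitor of NF-kappaB, fell by 0.46 and the phosphatase gene Dusp2 by 0.82 on the log2 scale, while Dusp5 rose by 0.97 ± 0.21. Fos, Jun and Myc were not called, and Nr4a1, a reporter of antigen receptor signals, stood at 4.95 ± 1.29 against 7.19 ± 1.35 CPM without a call (adjusted p = 0.0578). DESeq2 called Nr4a1 lower (adjusted p = 0.0376). So did edgeR with mean log centring (0.0487), without the filter on low counts (0.0209), and without naive replicate 1 (0.0414) or memory replicate 3 (0.0273).

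Cytokine signal transducers split by member, with 5 of 19 tested higher and 5 lower. Stat4 rose, as given above, and so did Jak1 (0.34 ± 0.06) and the phosphatase gene Ptpn2 (0.42 ± 0.08). Stat5b (-0.44 ± 0.08) and Stat5a (-0.41 ± 0.07), which act below the interleukin-2 receptor family, and Socs3, a feedback inhibitor (-0.74 ± 0.15), fell. Without naive replicate 1 or memory replicate 1 the number of genes called higher was 3. Of 23 tested interferon-stimulated genes 3 fell, among them Irf9 (-0.34 ± 0.08) and Gbp2, and 1 rose, Mx1 (0.92 ± 0.23, libraries overlapping). Over all tested genes 8.57% fell and 8.31% rose. Gbp2 fell by 0.60 on the log2 scale and lost its call in 5 of the 8 fits that left out 1 library (adjusted p up to 0.12, without naive replicate 2). Without memory replicate 2 the number that fell was 5.

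Metabolic genes showed opposite directions for glucose and cholesterol. Of 19 tested genes of glycolysis and glucose transport 9 rose and 1 fell, with a median of 0.33. Hk2, the inducible hexokinase, had 7.29, 8.33, 8.01 and 5.95 CPM in memory and 2.46, 2.48, 4.14 and 2.58 CPM in naive libraries (1.35 ± 0.19). Pfkp, a phosphofructokinase gene, had 39.8, 41.3, 42.3 and 39.4 CPM in memory and 20.7, 21.2, 21.5 and 23.7 CPM in naive libraries, with little spread (0.90 ± 0.09). Gpi1 (0.42 ± 0.07), Pgk1 (0.34 ± 0.07), Ldha (0.42 ± 0.10), Tpi1 (0.42 ± 0.11) and Pgam1 (0.56 ± 0.15), enzymes further along the pathway, rose by less, and the glucose transporter gene Slc2a1 by 0.33 ± 0.10. The 1 that fell was Gapdh (-0.80 ± 0.24), at CPM values too low to stand for this abundant transcript.

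Cholesterol synthesis and uptake went the other way, with 10 of 19 tested genes lower, 1 higher and a median of -0.46. Srebf2, the master regulator of the pathway, had 167, 143, 149.97 and 146 CPM in memory and 247, 211, 256 and 228 CPM in naive libraries, without overlap (-0.63 ± 0.08, edgeR, adjusted p = 5.44e-08). The synthesis enzyme genes Hmgcs1 (-0.89 ± 0.19), Cyp51 (-1.03 ± 0.28) and Fdps (-0.94 ± 0.27) fell too. The gene that rose was Soat2, which stores cholesterol as esters, with 8.63, 6.56, 7.76 and 10.1 CPM in memory and 1.08, 1.29, 1.77 and 1.1 CPM in naive libraries (2.68 ± 0.24).

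Mitochondrial genes changed little. In fatty acid oxidation 3 of 18 tested genes rose and none fell, with a median of 0.13, and in oxidative phosphorylation 3 of 22 rose and none fell, with a median of 0.08. The fatty acid count was 1 without memory replicate 4. The oxidative phosphorylation count was 1 without naive replicate 3 or memory replicate 1. Acot7, an acyl-CoA thioesterase gene, stood apart with 117, 125, 145 and 183 CPM in memory and 32.1, 33, 41.6 and 30.6 CPM in naive libraries (2.06 ± 0.18, edgeR, adjusted p = 3.97e-10). Etfb (0.49 ± 0.14), Ndufa4 (0.69 ± 0.18) and Cox4i1 (0.35 ± 0.10) rose with small sizes, and Etfb lost its call without memory replicate 4 (adjusted p = 0.0786) and Cox4i1 without memory replicate 1 (0.0823) or naive replicate 3 (0.0744).

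Cell division genes were higher where called. Of 28 tested replication genes 5 rose and none fell, with a median of 0.20. In mitosis 3 of 21 tested genes rose and none fell, with a median of 1.0. That median includes genes with very few counts, such as Bub1 with 3 over the memory and 0 over the naive libraries. Over all tested genes 8.31% were called higher. Mcm2, a helicase subunit of replication origins, rose from 59.1 ± 3.77 to 71.9 ± 2.62 CPM (0.28 ± 0.07) and Tyms, thymidylate synthase, by 1.04 ± 0.27. Racgap1, needed for cytokinesis, rose from 35 ± 2.83 to 50.7 ± 5.59 CPM (0.54 ± 0.11). Mki67, the proliferation marker, had 0.178, 0.16, 1.36 and 2.09 CPM in memory and 0, 0, 0.236 and 0.184 CPM in naive libraries. Memory replicates 3 and 4 held the highest Mki67 values. They were also the memory libraries with the most B cell RNA (below), and whether the 2 are linked was not tested. The Mki67 call was lost in 6 of the 8 fits without 1 library. Its log2 fold change moved from 3.12 to 2.32 without memory replicate 4 (edgeR, adjusted p = 0.246). The replication count was 2 without naive replicate 1 or memory replicate 4 and 3 without memory replicate 3. The mitosis count was 1 without naive replicate 1, 3 or 4 or memory replicate 3 or 4, and 5 without memory replicate 1.

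Genes that govern survival and growth factor signals held some of the clearest single changes. Of 8 tested BCL2 family genes 3 rose and none fell, with a median of 0.24. Bcl2l1, the gene of the survival protein BCL-XL, had 23.9, 26.4, 26.9 and 29.97 CPM in memory and 8.35, 10.3, 11.7 and 8.38 CPM in naive libraries, without overlap (1.47 ± 0.16, edgeR, adjusted p = 2.03e-09). Bbc3 (1.00 ± 0.21) and Bcl2l11 (0.61 ± 0.16), which encode the death-promoting proteins PUMA and BIM, rose as well. Bcl2 was not called (150.1, 191, 221 and 307 CPM in memory, 154, 146, 185 and 179.7 CPM in naive libraries), but it was called higher without memory replicate 1 (adjusted p = 0.0139).

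Of 17 tested TGF-beta pathway genes 3 rose and 6 fell, with a median of -0.11. Smad3 (chromosome 9, 63646767 to 63757994), a signal transducer of TGF-beta, had 487, 593, 567 and 619 CPM in memory and 233, 196, 234 and 219 CPM in naive libraries (1.36 ± 0.09, edgeR, adjusted p = 4.71e-15). Bmpr1a, a receptor for bone morphogenetic proteins, rose by 1.75 ± 0.28. Tgfbr3, a coreceptor, had 2.58, 2.4, 3.82 and 3.86 CPM in memory and 14, 13.2, 12.3 and 12.5 CPM in naive libraries (-2.02 ± 0.19). The inhibitors Smad7 (-0.43 ± 0.08) and Smurf2 (-0.57 ± 0.08) fell along with the receptor gene Tgfbr2.

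Of 26 tested phosphoinositide and small GTPase genes 9 rose and 4 fell, with a median of 0.11. The exchange factor genes Dock5 (from 19.7 ± 1.06 to 50.2 ± 2.96 CPM, 1.34 ± 0.13) and Dock9 (from 66 ± 5.67 to 156 ± 17.6 CPM, 1.24 ± 0.09) and the GTPase activator gene Arhgap26 (0.94 ± 0.09) were among the former. The phosphatase gene Inpp4a had 14.4, 10.4, 11.5 and 8.56 CPM in memory and 29.9, 25.4, 30.4 and 32.1 CPM in naive libraries (-1.38 ± 0.14), and its relative Inpp4b fell by 0.62 on the log2 scale.

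Chromatin genes changed by small amounts. Of 17 tested genes of the DOT1L complex and its partners 1 rose and 3 fell, with a median of -0.06. Among 26 tested genes of PRC2 and of histone H3 lysine methylation 2 rose and 5 fell, with a median of -0.09. Over all tested genes 8.31% rose and 8.57% fell. The counts that rose lie near that share and are no result about these lists. The histone chaperone gene Npm1 rose (0.50 ± 0.11). Men1, which encodes menin, fell by 0.39, Kmt2a, whose fusions recruit DOT1L in leukaemia, by 0.25 and Aff3 by 0.21 on the log2 scale. Without naive replicate 1, naive replicate 3 or memory replicate 3 only Men1 of these remained called lower. Phf19, a PRC2 accessory gene (1.28 ± 0.25), and Nsd2, a methyltransferase gene (0.68 ± 0.14), rose, while Ezh2, the catalytic subunit of PRC2, was not called (65.8 ± 6.19 against 71.7 ± 6.23 CPM, edgeR, adjusted p = 0.564). Kmt2c (-0.29 ± 0.07), Setd1a (-0.37 ± 0.10), Kdm6b (-0.31 ± 0.10), Setd1b and Nsd3 fell, a count that dropped to 2 without naive replicate 3 and to 3 without naive replicate 4 or memory replicate 1, 3 or 4.

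Of 14 tested E protein, ID and Kruppel-like factor genes 2 rose and 4 fell, with Klf13 falling most clearly (-0.73 ± 0.13) and the E protein gene Tcf12 rising (0.31 ± 0.06). Without naive replicate 1 or 4 or memory replicate 3 or 4 only 1 was called higher. Heat shock genes, listed to look at handling stress during sorting, had 3 of 11 tested members higher and a median of 0.18. Among the 3 were Hsp90ab1 (0.38 ± 0.07) and Hspa8 (0.36 ± 0.10). Hspa1a and Hspa1b were not called, with 860 against 804 and 2027 against 2555 counts over the memory and naive libraries. Whether handling stress played a part in these or the other results was not tested. Of 12 tested inhibitory receptor and exhaustion genes 2 rose, Cd160 and Entpd1, the gene of the ectonucleotidase CD39, which had 43 counts over the memory and 2 over the naive libraries, a ratio of 24.2 (95% interval 6.3 to 206). Both naive counts came from replicate 1. Tox, a factor of exhausted cells, fell from 131 ± 7.34 to 79.3 ± 7.82 CPM (-0.72 ± 0.09). Pdcd1, Lag3 and Havcr2 had at most 1 count in any of these libraries.

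**Figure D3:**
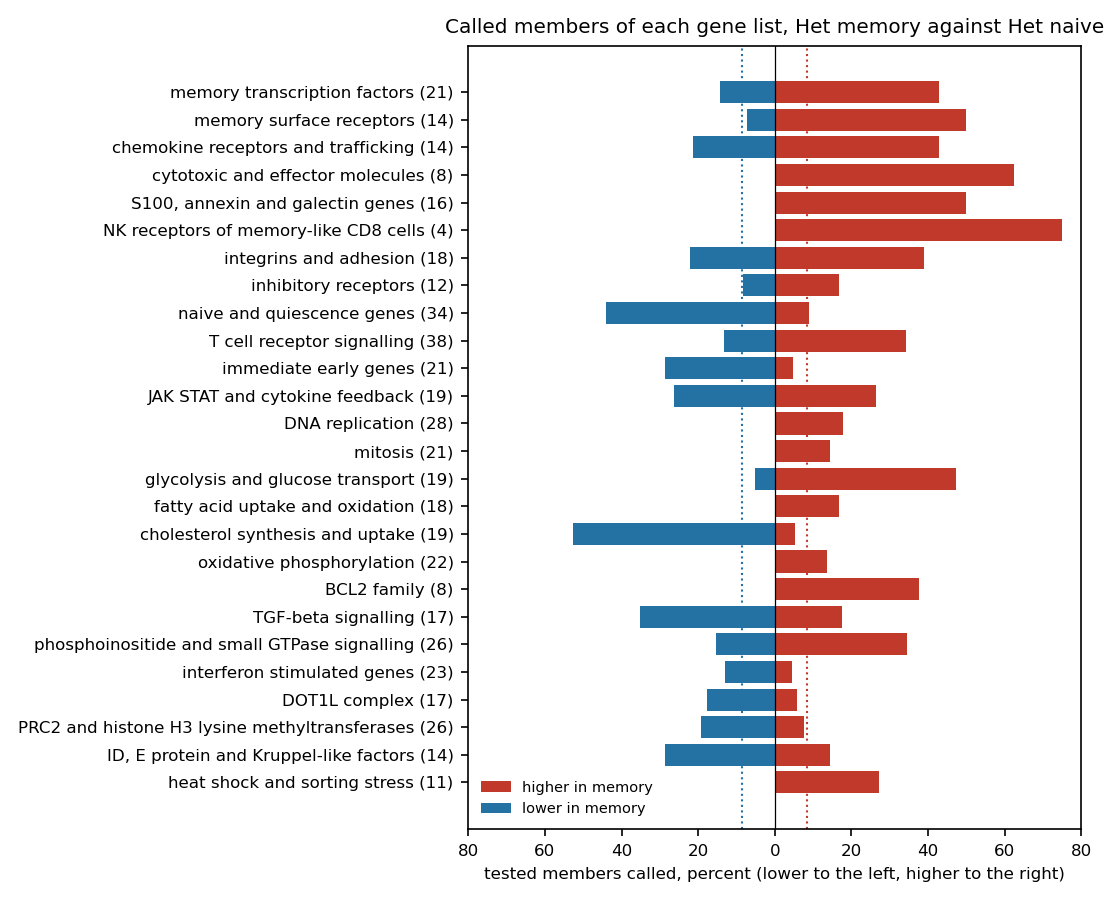
Percent of the tested members of each gene list called higher (right) or lower (left) in memory against naive Het libraries. Dotted lines mark the 8.31% and 8.57% of all tested genes called higher and lower, and the cholesterol list (10 of 19 lower) and the glycolysis list (9 of 19 higher) lie far beyond them on opposite sides.

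Markers of other cells were measured beside these results. Markers of CD8 T cells summed to 1430 to 1560 CPM in memory and 1410 to 1480 CPM in naive libraries. Lck carried most of this sum, with 36166 counts over the memory and 35925 over the naive libraries. Cd8a had only 312 and 322 counts and Cd8b1 206 and 226, so the sum does not measure CD8 purity. Of its 12 members 1 was called higher (Trac) and 1 lower (Cd247). The 18 B cell genes summed to 149 to 284 CPM in memory and 192 to 241 CPM in naive libraries, and no tested member passed (edgeR, lowest adjusted p 0.114). Their values were highest in memory replicates 3 and 4 (279 and 284 CPM), where Pax5, the B cell identity factor, was at 12.1 and 14.6 CPM against 0.445 and 4 CPM in replicates 1 and 2. On the second principal component, 14.8% of the variance, memory replicates 3 and 4 stood at -26.95 and -10.61 and replicates 1 and 2 at 26.03 and 18.47. The part of these cells in the results was not tested. Myeloid genes summed to at most 4.04 CPM. The 13 natural killer cell genes summed to 150 to 189 CPM in memory and 51 to 69.5 CPM in naive libraries. That sum was carried by Eomes and Il2rb, which CD8 memory cells express, and 7 of the 13, the defining gene Ncr1 included, had no count in these libraries. Haemoglobin and other erythroid genes were higher in replicates 1 and 2 of both subsets (40.8 and 54.2 CPM in memory, 72.6 and 82.6 CPM in naive) than in replicates 3 and 4, and no tested member passed without a term for the replicate number (edgeR, lowest adjusted p 0.137).

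Genes of CD4, regulatory and unconventional T cells gave a mixed picture. The 10 CD4 and regulatory T cell genes summed to 143 to 168 CPM in memory and 112 to 167 CPM in naive libraries, and Cd4 had no count. Zbtb7b, the CD4 lineage factor ThPOK, had 2.31, 3.36, 6.04 and 6.06 CPM in memory and 0.491, 0.396, 0.591 and 0.736 CPM in naive libraries (2.97 ± 0.62), and Gata3 rose by 0.95 ± 0.09. Foxp3 fell from 1.13 ± 0.281 to 0.305 ± 0.227 CPM (-1.73 ± 0.56) but was no longer called in 4 of the 8 fits that left out 1 library (adjusted p up to 0.0848, without memory replicate 3), and stood at -2.38 without memory replicate 1. Izumo1r, the folate receptor of regulatory T cells, fell by 1.08 ± 0.28 on the log2 scale. Cd163l1, a scavenger receptor gene known from gamma delta T cells, rose from 0.173 ± 0.14 to 3.02 ± 1.79 CPM (adjusted p = 3.49e-06). Sox13, a factor of the same cells, had 3 counts over the memory and 64 over the naive libraries, naive 19 times memory (95% interval 6.2 to 94.3), its memory counts all from replicate 3. The part of such cells in the results was not tested.

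The same comparison in mice without a floxed allele gave a similar picture. In WT libraries 1551 genes (15.1%) were called between memory and naive, 791 higher (7.68%) and 760 lower (7.38%). In KO libraries 1782 (17.3%) were called, 895 higher (8.69%) and 887 lower (8.61%). Het and WT contrasts share no library. Of the genes called higher in Het, 611 were also called higher in WT, 71.4% of the Het list and 77.2% of the WT list. Of those called lower, 573 were shared, 65.0% of the Het and 75.4% of the WT list, and 0 genes were called in opposite directions. Median log2 fold changes of the Het-called genes were 0.70 in Het against 0.57 in WT for those higher and -0.52 against -0.39 for those lower. Since those genes were chosen on the Het values, the gap carries no weight. A direct test of the difference between both contrasts (Het minus WT) called 0 of 10296 genes (0%) in edgeR, with a smallest adjusted p of 0.397. At an unadjusted p under 0.05 there were 294, and DESeq2 called 0 with 280. A p that misses the threshold does not show that both genotypes act alike. Gas7, for example, had a log2 fold change of 6.86 ± 0.67 in Het and 5.32 ± 0.61 in WT, and Gria3 one of -5.83 ± 0.36 and -4.21 ± 0.30.

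**Figure D4:**
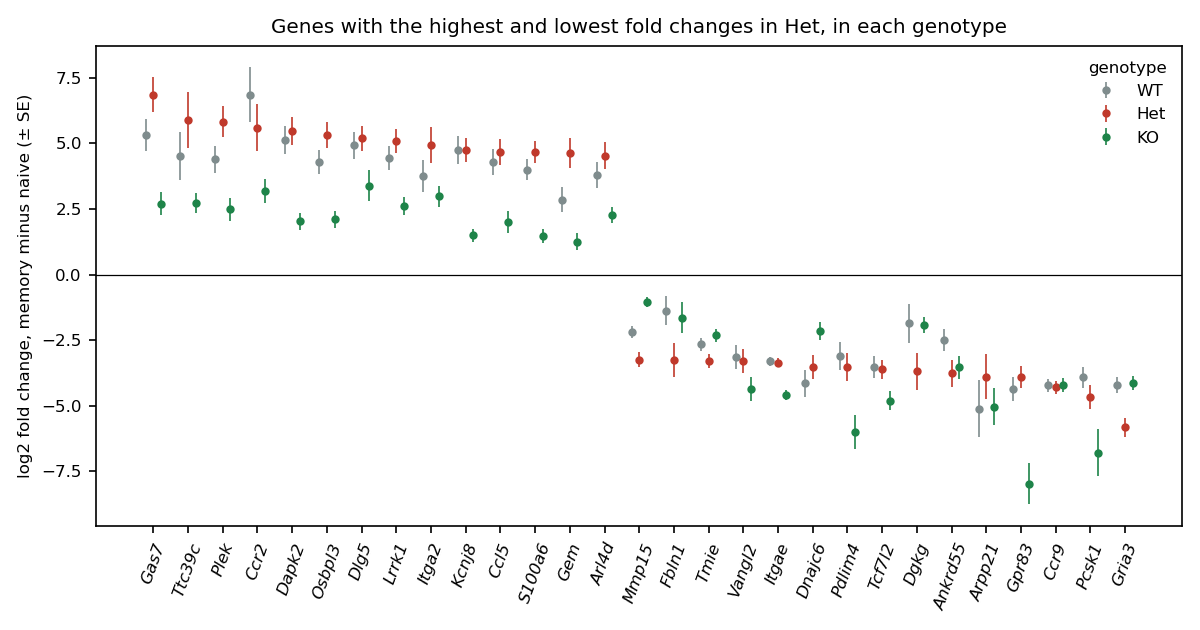
Log2 fold change of memory against naive libraries with SE bars in WT, Het and KO libraries for the highest and lowest named genes of the Het comparison. WT values lie near the Het values for most genes, and the KO values of high genes such as Gas7 (2.70), Plek (2.50) and S100a6 (1.47) lie closer to 0.

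Against the libraries labelled KO the contrast did differ. The test of the difference (KO minus Het) called 198 genes (1.92%), 65 higher (0.631%) and 133 lower (1.29%), and 984 genes had an unadjusted p under 0.05. Of the 856 genes that rose in Het memory cells 101 were among them, 97 with a lower and 4 with a higher KO contrast, and of the 882 that fell 59, 46 with a higher and 13 with a lower one. Since Het libraries enter both selections, this split is a description. Of the 8558 genes not called in Het, 38 were called. Between Het and KO 507 genes called higher were shared (59.2% of the Het and 56.6% of the KO list) and 504 called lower (57.1% and 56.8%). Of the genes called higher in Het 3 were called lower in KO, and of those called lower 5 were called higher.

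The weaker KO contrasts named here came with higher levels in KO naive than in Het naive libraries, without overlap for all but Cxcr5. Tbx21 was at 214, 172, 246 and 213 CPM in KO memory and 69, 47.3, 126 and 58.3 CPM in KO naive libraries, against 17.5 ± 2.74 CPM in Het naive libraries. All KO naive libraries lay above all Het naive ones, and the difference between contrasts was -1.86 ± 0.34 (edgeR, adjusted p = 0.00159). S100a6 was at 105, 81.2, 96.8 and 107 CPM in KO memory and 36.8, 22.1, 48.4 and 32.9 CPM in KO naive libraries, so that both subsets lay above the Het means of 40.6 ± 8.97 and 1.62 ± 1.04 CPM (-3.19 ± 0.53, adjusted p = 0.000519). Ccl5 (-2.66 ± 0.61), Cd44 (-2.44 ± 0.39), Cxcr3 (-1.89 ± 0.38), Cxcr5 (-2.60 ± 0.47), Runx2 (-2.07 ± 0.27), Bhlhe40 (-1.38 ± 0.36) and Il2rb (-1.21 ± 0.26) went the same way, and so did Dapk2 (-3.45 ± 0.67), Kcnj8 (-3.26 ± 0.59) and Lrrk1 (-2.49 ± 0.60). KO naive replicate 3 held the highest value of these genes in its group, Cxcr5 apart, for Cd44 18 CPM against 5.49 to 6.3 CPM in the others. Gas7 (-4.16 ± 0.88), Plek (-3.33 ± 0.75) and Osbpl3 (-3.23 ± 0.64) moved to -3.14, -2.33 and -2.44 without that library, and lost their calls when only the compared libraries were fitted (adjusted p = 0.101, 0.104 and 0.0837). Gem (-3.38 ± 0.69) moved to -4.88 without Het naive replicate 3.

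Id2 changed direction between genotypes. It fell in Het but rose in KO, at 465, 422, 455 and 562 CPM in KO memory and 151, 146, 171 and 140.4 CPM in KO naive libraries. KO memory libraries were far above the Het memory mean of 102 ± 4.14 CPM, and the difference was 2.18 ± 0.24 (edgeR, adjusted p = 2.26e-06). Id3, not called in Het, was at 25.1, 28.4, 17.4 and 12.5 CPM in KO memory and 46.9, 49.4, 41.5 and 50.2 CPM in KO naive libraries (-1.28 ± 0.29, adjusted p = 0.0123). Higher KO contrasts were also seen for the junction gene Jup (2.98 ± 0.38, and 3.59 without Het memory replicate 4), Tspan6 (2.77 ± 0.63), Mmp15 (2.21 ± 0.36), Apbb1 (2.1), Cep170b (1.85 ± 0.31), the oxygen sensor gene Egln3 (1.83 ± 0.36) and Tgfbr3 (1.79 ± 0.26). Jup was at 0.492 ± 0.324 against 3.2 ± 0.821 CPM in Het and at 16.3 ± 2.1 against 13.4 ± 1.74 CPM in KO libraries. Zfp385a was lower (-2.96 ± 0.80) but stayed called in only 5 of the 16 fits that left out 1 library. Itgae fell further in KO, to 1.44 ± 0.236 from 35.3 ± 8.98 CPM (-1.24 ± 0.28). Of the 28 tested replication genes 21 rose in KO memory cells against 5 in Het, and 5 were called in the test of the difference, all with the higher contrast in KO.

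**Figure D5:**
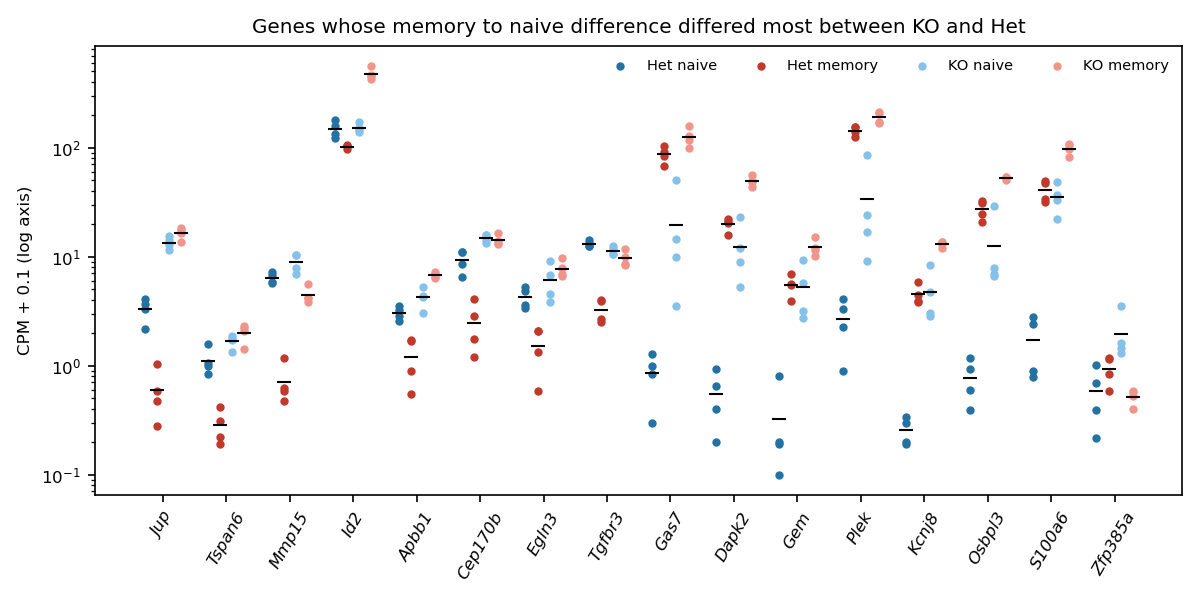
CPM plus 0.1 on a log axis for the 8 highest and 8 lowest genes of the KO minus Het difference, in naive and memory libraries of Het and KO (points, one per library). KO naive libraries lie above Het naive ones for Gas7, Plek, S100a6 and Gem, and KO memory libraries lie above Het memory ones for Id2, Jup and Tgfbr3.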

How the data were processed

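RNA of sorted CD8 T cells was sequenced as stranded mRNA libraries with single reads of 65 bases, per the labels' protocols. The authors deposited raw counts of reads per gene for 35 libraries in 9 groups. The submitters' processing notes name TopHat2 2.1.0, HTSeq 0.9.1 and the builds GRCm38 and mm10. Which annotation release and which strand setting were used for counting is not given in the sources used here. Genes that overlap or have antisense partners are therefore uncertain. GENCODE M21 (GRCm38) supplied symbols and coordinates and matched 52403 of 52636 identifiers.

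Counts were tested with edgeR 4.0.16 (limma 3.58.1, R 4.3.3): TMM scaling, filterByExpr over the groups, a robust quasi-likelihood fit of the 9 group means over 35 libraries and two-sided F tests. Benjamini-Hochberg adjustment ran over the 10296 tested genes, and genes under 0.05 were called. Fold changes are log2 and come from the fit with edgeR's default prior count. A prior count of 2 applied to log2 CPM values, as in the correlations and principal components, and not to the fold changes. CPM values were computed with TMM-scaled library sizes. DESeq2 1.42.0 and other scalings, filters, covariates and left-out libraries were alternatives, and the procedure was tested on simulated data. Intervals of count ratios are exact binomial ones at 95% and cover counting error only, with a floor of 3 counts over a group where all its libraries were at 0.

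The members and gene lists were chosen with earlier results of these data known. Named genes were a list of key genes, up to 5 members per list by adjusted p, and the 15 highest and 15 lowest fold changes. The latter came from called genes whose libraries did not overlap and whose mean log2 CPM over all 35 libraries was not below 1. Predicted models and receptor segments were left out there. The 8 highest and 8 lowest genes of each difference between genotypes were named too. Further list members were named after their values were seen. A few genes that this rule names are not reported here.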

Additional observations from a re-analysis of the deposited data

Results flagged for a closer look

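Among 98 groups of 4 Het libraries, memory and naive for each of 49 genes, 6 held 1 library far from the other 3 by Dixon's test. For normally spread values chance flags about 1 in 20 groups. That rate does not hold near 0, where a group with 3 libraries at 0 and 1 above is always flagged. Ttc39c, Arpp21 and Dgkg were flagged in this way. In naive libraries these were Ttc39c, at 0.118 CPM in replicate 3 against 0 in the others, Gem, at 0.709 CPM in replicate 3 against 0 to 0.099, and Arl4d, at 0.736 CPM in replicate 4 against 0.236 to 0.297. In memory libraries they were Ccr9, at 2.88 CPM in replicate 2 against 3.29 to 3.34, Arpp21, at 0.123 CPM in replicate 3 against 0, and Dgkg, at 0.209 CPM in replicate 4 against 0.

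The memory to naive log2 fold change differed between KO and Het libraries, by edgeR's test of the difference, for 42 of the genes named by the rule or in the text. Genes with a lower KO value (KO minus Het) were Entpd1 (-5.05, at few counts in Het), Gas7 (-4.16), Cd163l1 (-4.11), Dapk2 (-3.45), Gem (-3.38), Plek (-3.33), Kcnj8 (-3.26), Osbpl3 (-3.23), S100a6 (-3.19), Zfp385a (-2.96), Ccl5 (-2.66), Cxcr5 (-2.60), Lrrk1 (-2.49), Cd44 (-2.44), Runx2 (-2.07), Cxcr3 (-1.89), Tbx21 (-1.86), Soat2 (-1.85), Bhlhe40 (-1.38), Hk2 (-1.31), Id3 (-1.28), Itgae (-1.24), Il2rb (-1.21), Acot7 (-1.14), Inpp4b (-1.06), Dock9 (-0.80), Cd5 (-0.78), Actn1 (-0.62), Arhgap26 (-0.50) and Nsg2 (-0.39). Genes with a higher KO value were Jup (2.98), Tspan6 (2.77), Mmp15 (2.21), Id2 (2.18), Apbb1 (2.1), Cep170b (1.85), Egln3 (1.83), Tgfbr3 (1.79), Inpp4a (1.16), Mcm2 (0.55), Mcm6 (0.46) and Itgb7 (0.42).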

How the results depend on the processing

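The number of genes called between Het memory and naive libraries stayed within 1.5 times 1738 under each of the 17 alternatives run, from 1440 when only the 8 libraries were fitted to 1780 with a sex term. DESeq2 called 1777, of which 1702 were shared. Leaving out 1 library gave 1467 (without naive replicate 3) to 1633 (without memory replicate 4). The test of Het minus WT called 0 genes under all 25 alternatives, with 258 to 627 at an unadjusted p under 0.05. That of KO minus Het called 160 to 199 without 1 library and 169 to 241 otherwise. With mean log centring 788 genes were called higher and 949 lower. No called value changed sign. Among the named genes of the Het comparison 113 fits lost and 38 gained a call, and 3044 kept their side of the threshold. For KO minus Het 17 fits lost a call and 383 kept it. The cause of these changes was not tested.

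Replicate numbers are shared between groups. Same-numbered Het memory and naive libraries had correlations of their deviations of 0.146, 0.0749, 0.241 and 0.0848. Differently numbered Het pairs lay from -0.152 to 0.0777. Not all same-numbered values were over 0.1, so these libraries were not treated as paired, and the main p-values ignore any pairing by number. Memory replicate 2 correlated about as well with naive replicate 1 (0.0777) as with naive replicate 2 (0.0749). Same-numbered libraries had 0.206 to 0.31 in WT and 0.0995 to 0.322 in KO, and libraries with more Xist than Y-linked RNA carried the same numbers in memory and naive cells of each genotype. No label says what a number marks. With the replicate block 1554 genes were called, 811 higher and 743 lower, of which 1426 were shared, and KO minus Het gave 224. Among named genes, calls lost with the block were those of Foxp1 (adjusted p = 0.0601), Ikzf2 (0.202), Mcm6 (0.0513), Tk1 (0.12), Hadh (0.0739), Ndufv2 (0.0543) and Aff3 (0.0852), and for KO minus Het those of Gas7 (0.111), Plek (0.0952) and Osbpl3 (0.0781). Calls gained were those of Bcl2 (0.0143), Mcl1 (0.0497), Ifit1 (0.000816), Hsp90aa1 (0.00492) and, lower in memory, of the haemoglobin genes Hba-a1 (0.00431) and Hbb-bs (0.00418), which makes 2 erythroid genes in place of 0. Among the lists, mitosis went to 5 higher and 1 lower, interferon-stimulated genes to 5 lower, immediate early genes to 2 higher, the BCL2 family to 1 lower, glycolysis to 0 lower and PRC2 and H3 lysine methylation to 3 lower. Genes with few counts in one subset had fold changes that single libraries moved by over 1.5-fold. Low counts limit what can be said of granzymes and most natural killer receptors, and the reason for these low counts was not tested.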
